A study of Homo sapiens with 12 samples.

Results

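RNA of 27 tetraspanin genes was compared between 4 lines of MIA PaCa-2, a cell line from a human pancreatic carcinoma. The members were every gene of the table whose symbol was TSPAN followed by a number, without TSPAN2, together with CD9, CD37, CD53, CD81, CD82 and CD151. They made up 27 of 63086 genes. CD63, the tetraspanin that is known to bind the protein made from TIMP1, was left out by this definition. WT cells were unmodified, and CRISPR Control cells had gone through CRISPR-Cas9 editing, carried a silent point mutation that leaves the protein sequence as it was. In TIMP1 KO 1 and TIMP1 KO 2 exon 4 of TIMP1, which encodes a secreted inhibitor of matrix metalloproteinases, had been edited, and each of these was a single knockout clone. The labels give the same culture medium and no treatment for all 4 lines, with 3 biological replicates (libraries) of each. Each line was thus a single line or clone, and line and genotype cannot be told apart. The labels call the replicates biological without saying whether they were separate cultures, so the p-values below measure the spread between these libraries. KO 1 and KO 2 are called deficient lines and WT and CRISPR Control competent lines.

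Tetraspanins are small membrane proteins that cross the membrane 4 times. They gather integrins, immunoglobulin-like proteins, proteases and each other into patches of membrane called tetraspanin-enriched microdomains, and several are packed into extracellular vesicles. In carcinomas they are studied for their part in adhesion, migration, shedding of surface proteins and vesicle release. The TspanC8 members (TSPAN5, TSPAN10, TSPAN14, TSPAN15, TSPAN17 and TSPAN33) are known to escort ADAM10, a protease that sheds surface proteins such as Notch receptors and cadherins, out of the endoplasmic reticulum.

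The start regions of 4 members whose RNA differed widely between lines are shown because they differ in CpG content. Each stretch lies within the 250 bases before a RefSeq transcript start in the GRCh38.p14 assembly and holds no annotated exon. The stretches run 5′ to 3′ along the gene's own strand, with CG dinucleotides in capitals. They come from TSPAN8 (chr12:71158000-71158249, minus strand), TSPAN1 (chr1:46174837-46175072, plus strand), CD82 (chr11:44565413-44565600, plus strand) and TSPAN13 (chr7:16753505-16753754, plus strand).
TSPAN8: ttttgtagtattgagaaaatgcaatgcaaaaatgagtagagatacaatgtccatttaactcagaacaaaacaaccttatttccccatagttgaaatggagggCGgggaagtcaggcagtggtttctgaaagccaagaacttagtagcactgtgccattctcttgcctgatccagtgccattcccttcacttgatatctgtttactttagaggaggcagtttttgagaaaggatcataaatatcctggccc
TSPAN1: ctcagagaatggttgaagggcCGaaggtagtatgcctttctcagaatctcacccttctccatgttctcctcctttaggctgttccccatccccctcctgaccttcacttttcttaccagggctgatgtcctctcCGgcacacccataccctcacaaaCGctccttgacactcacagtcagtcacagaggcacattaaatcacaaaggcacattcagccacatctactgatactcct
CD82: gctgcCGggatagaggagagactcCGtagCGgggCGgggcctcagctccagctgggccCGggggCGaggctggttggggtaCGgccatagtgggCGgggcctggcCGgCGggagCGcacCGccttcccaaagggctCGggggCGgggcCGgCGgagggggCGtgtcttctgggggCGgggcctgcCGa
TSPAN13: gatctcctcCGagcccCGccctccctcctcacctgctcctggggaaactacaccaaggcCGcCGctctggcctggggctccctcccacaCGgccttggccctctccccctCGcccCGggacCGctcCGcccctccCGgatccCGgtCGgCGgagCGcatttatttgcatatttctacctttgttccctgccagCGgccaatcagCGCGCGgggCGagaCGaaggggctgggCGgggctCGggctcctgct
Over windows of 300 bases, from 250 before to 50 after the start, the TSPAN8 window held 1 CG and TSPAN1 held 5, while CD82 held 33 and TSPAN13 held 30. The median of all 35116 RefSeq windows was 14. Windows were found for 19 of the 27 members. The CD82 and TSPAN8 starts shown lie inside the annotated genes, which begin at 44564427 and, on the minus strand, at 71441898.

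Normalised counts here are a gene's reads scaled by the size factor of their library. The libraries held 26908701 to 36093563 reads in genes. TIMP1 itself ran from 1136 to 1624 in the 6 deficient libraries and from 2285 to 3837 in the 6 competent ones, and these values are of RNA, not protein. CDKN2A, which is deleted in MIA PaCa-2, had 0 reads in every library. CRISPR Control stood apart in 3 keratins. The 6 epithelial markers summed to 56587 to 72786 in its libraries and to 174305 to 223516 in the other 9, a sum made up almost wholly of KRT8, KRT18 and KRT19. The other 3 were not lower there, with 112 ± 22.1 for KRT7, 1875 ± 297 for EPCAM and 1424 ± 73 for CDH1 beside 91.5 ± 19.8, 1889.8 ± 88.6 and 1189 ± 56.6 in WT. The mesenchymal markers VIM, ZEB1 and CDH2 summed to 53285 to 64874 in CRISPR Control and to 71208 to 96508 elsewhere, though CDH2 alone was highest in CRISPR Control, and 1 of 4 fibroblast markers, PDGFRB, had a mean of at least 10. Line means of these 3 keratins are given below beside some of the tetraspanins. In bulk RNA fewer cells of a kind and less RNA per cell cannot be told apart.

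CD151 was the leading tetraspanin RNA of these cells in each line, and the order beneath it changed between lines. Levels of different genes were compared as normalised counts per kilobase of exon. CD151, which binds laminin-binding integrins, stood at 5119.5 ± 374 per kilobase for WT (mean ± SD of 3 libraries, as are the following), 3289 ± 319 for CRISPR Control, 6668 ± 32.8 for KO 1 and 6869.9 ± 513 for KO 2. Averaged over the 12 libraries it exceeded 99.0% of the 15908 tested genes with a known exon length. The next in WT was TSPAN13 at 4597 ± 468, whose libraries overlapped those of CD151, then TSPAN15 at 2429 ± 181, CD9 at 1659.9 ± 33.1 and CD81 at 1406 ± 155. In CRISPR Control the order after CD151 was CD81, TSPAN13, CD9 and TSPAN15, and neighbours among these 4 overlapped. In both deficient lines it was TSPAN13, CD9, TSPAN15 and CD81, where only TSPAN15 and CD81 of KO 1 overlapped. TSPAN4, a tetraspanin of migrasomes, came after these in every line, with 994 ± 60.7 in WT.

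A group of 6 members was too low to test. TSPAN7, TSPAN11, TSPAN16, TSPAN19, TSPAN32 and CD53 had means under the minimum of 10 over the 12 libraries, and their highest mean was 6.49. TSPAN11 reached the highest single value among them, with 22.4, 21.9 and 9.08 in KO 2 against at most 6.48 in the other lines. CD53, a leukocyte tetraspanin, had at most 6.48 in any library. The remaining 21 members were tested with limma, a linear model with moderated spread, on log2(normalised count + 1) together with 15987 genes in all, and differed means an adjusted p under 0.05 below. Folds on this scale understate the change of low genes.

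Most tetraspanins differed between some pair of lines, and so did most genes. All 21 differed in at least 1 of the 6 pairs of lines (86.9% of all tested genes), and 15 did so with an absolute log2 fold change of at least 1 (33.6% of all tested genes). TSPAN15, CD82, TSPAN1, TSPAN14 and TSPAN18 differed in all 6 pairs, which 6.37% of tested genes did. TSPAN15 lost its call in KO 2 against WT under 4 alternatives and between the KO lines under 7, where its adjusted p ran from 0.0599 to 0.179. Relative to WT, 9 members were higher in KO 1 (18% of tested genes) and 3 lower (17.5%), together 12 of 21 where 35.5% of tested genes differed. In KO 2, 10 were higher (27.1%) and 6 lower (27.9%), 16 of 21 beside 55%. CRISPR Control had 9 higher (27.2%) and 9 lower (26.3%), 18 of 21 beside 53.4%. Relative to CRISPR Control, KO 1 had 11 higher (31.7%) and 8 lower (31.3%), 19 of 21 beside 63%. KO 2 had 12 higher (33.3%) and 9 lower (34.4%), 21 of 21 beside 67.7%. KO 2 exceeded KO 1 in 7 (18.1%) and lay below it in 5 (20.1%), 12 of 21 beside 38.2%. With an absolute log2 fold change of at least 1 the counts were 3 in KO 1 (8.21% of tested genes), 6 in KO 2 (14.7%) and 4 in CRISPR Control (14.7%) relative to WT, 10 in KO 1 (21.2%) and 11 in KO 2 (24.5%) relative to CRISPR Control, and 2 between the KO lines (8.25%). The comparisons with WT share the same WT libraries, and those with CRISPR Control share its libraries.

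The pooled comparison set the mean of the deficient lines against that of the competent lines. Here 12 members were higher (32.9% of tested genes), 7 lower (33%) and 2 did not pass the test, where 65.9% of tested genes differed. An absolute log2 fold change of at least 1 was reached by 5 (14.5%). The median log2 fold change of the 21 was 0.36, and that of all tested genes 0.0023. The CD-named members had 3 higher and 1 lower of 5, TspanC8 3 higher and 3 lower of 6, and the other TSPAN genes 6 higher and 3 lower of 10. With WT alone as the competent line, an alternative added after the data had been seen, 12 were higher and 6 lower (49.8% of tested genes differed). These were not all the same members. TSPAN15 turned from higher to lower (-0.35, adjusted p 0.000513, limma) and TSPAN18 from lower to higher (0.37, adjusted p 0.0436). TSPAN12 became higher (0.33, adjusted p 0.0271), and TSPAN13 and TSPAN17 no longer passed the test.

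The 6 deficient libraries lay above all 6 competent libraries for CD151, CD9, CD82, TSPAN5, TSPAN10, TSPAN1, TSPAN31 and TSPAN8, 8 members in all (12.3% of tested genes). They lay below for 3 members, TSPAN14, TSPAN33 and CD37 (12.4%). The groups overlapped for the other 10. With the 3 WT libraries alone in place of the 6 competent ones, the same 8 lay above (17.9%), and TSPAN15 joined the 3 that lay below (19.1%).

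**Figure D1:**
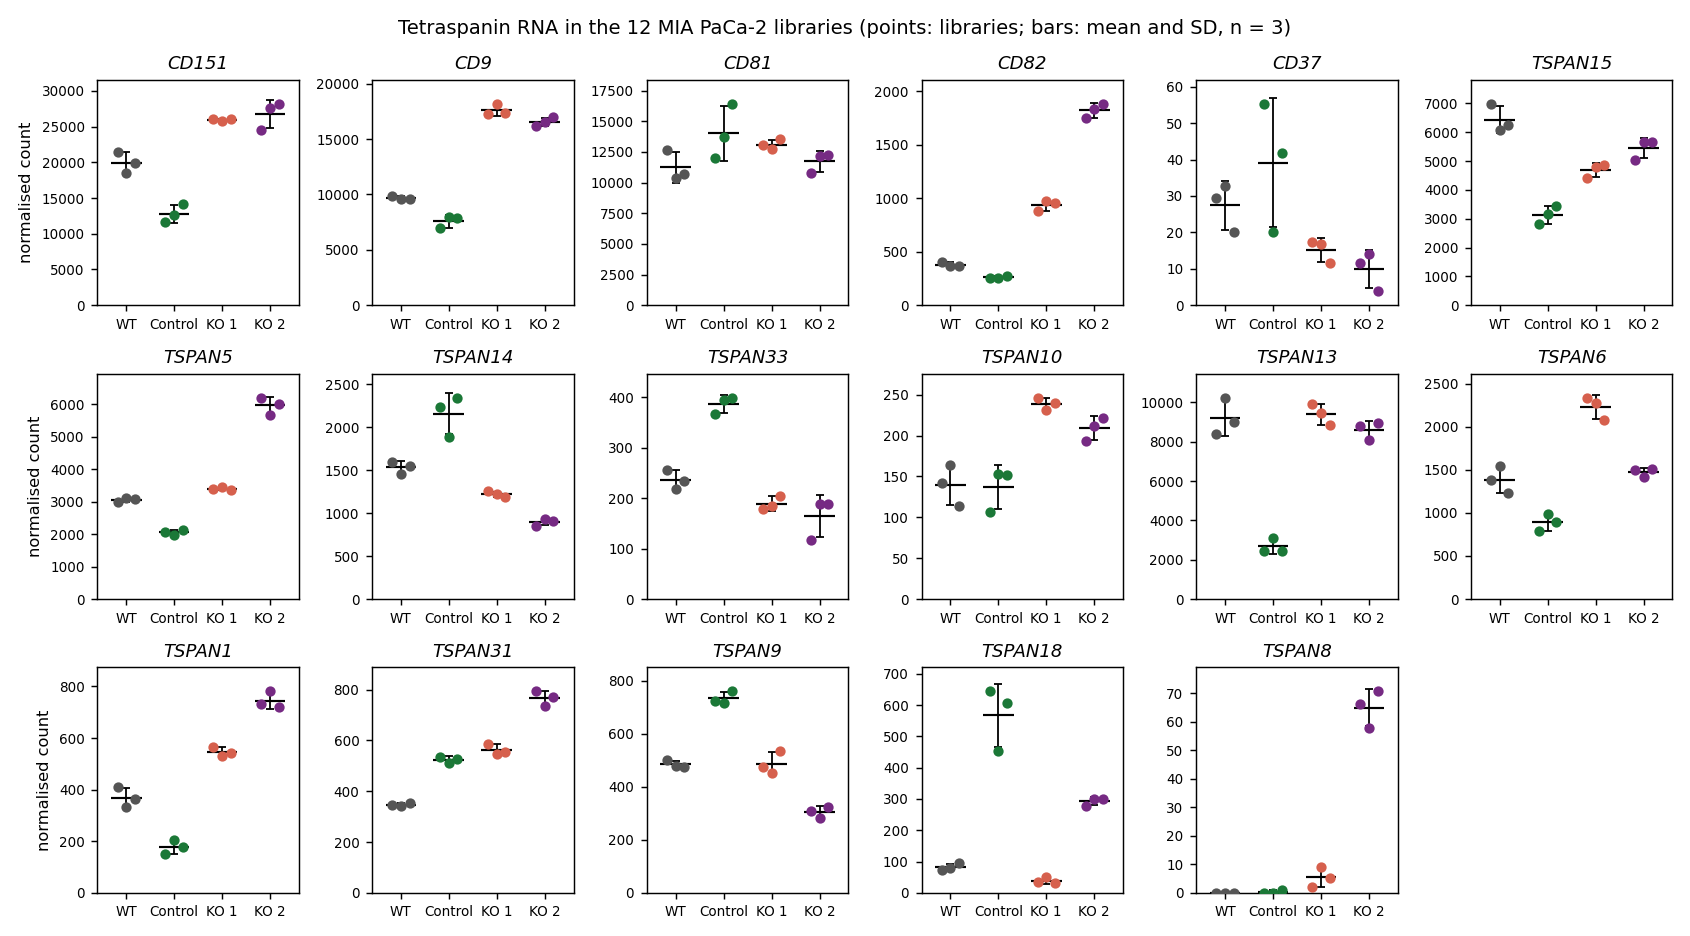
Normalised counts (linear axes from 0) of 17 tetraspanins in the 12 libraries, with points for libraries and bars for the mean and SD of 3 libraries in WT, CRISPR Control (Control), KO 1 and KO 2. CD82 rises from at most 404 in the competent libraries to at least 878 in the deficient ones, whereas TSPAN13 is low in CRISPR Control alone.

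CD82, CD9 and CD151 were the CD-named members that rose in both deficient lines, and all 3 fell in CRISPR Control. CD82 (ENSG00000085117.12, chromosome 11 from 44564427 to 44620358, plus strand), known as a metastasis suppressor, had normalised counts of 404, 365 and 363 for WT, 251, 253 and 277 for CRISPR Control, 878, 972 and 955 for KO 1 and 1748, 1832 and 1883 for KO 2. The 4 lines did not overlap, with CRISPR Control lowest and KO 2 highest. On the log2 scale, with SE after the sign ±, the fold change relative to WT was 1.31 ± 0.09 at an adjusted p of 9.82e-10 in KO 1, 2.27 ± 0.09 at an adjusted p of 1.8e-13 in KO 2 and -0.53 ± 0.09 at an adjusted p of 4.55e-05 in CRISPR Control (limma). KO 2 stood above KO 1 by 0.96 ± 0.09 at an adjusted p of 6.7e-08. The linear fold of KO 2 over WT was 4.82 on the log2(value + 1) scale. CD82 had the greatest pooled difference of the CD-named members, 2.05 ± 0.06 at an adjusted p of 1.21e-15.

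CD9 (ENSG00000010278.15, chromosome 12 from 6199715 to 6238271, plus strand), a tetraspanin of adhesion sites and vesicles that also takes part in cell fusion, had normalised counts of 9897, 9586 and 9543 for WT, 6926, 7924 and 7859 for CRISPR Control, 17229.5, 18172 and 17387 for KO 1 and 16166, 16499.5 and 16959 for KO 2. KO 1 lay just above KO 2, both lay far above the competent lines, and no lines overlapped. Log2 fold changes against WT were 0.86 ± 0.07 at an adjusted p of 8e-09 in KO 1 and 0.77 ± 0.07 at an adjusted p of 1.4e-08 in KO 2, and -0.36 ± 0.07 at an adjusted p of 0.000197 in CRISPR Control (limma). Between KO 2 and KO 1 it was -0.09 ± 0.07 at an adjusted p of 0.316, which did not pass the test. CD151 (ENSG00000177697.19, chromosome 11 from 832887 to 839831, plus strand) had normalised counts of 21401, 18488 and 19917 for WT, 11680.4, 12607 and 14139.6 for CRISPR Control, 26064, 25821 and 26010.1 for KO 1 and 24468, 27617 and 28169 for KO 2. Both KO lines exceeded every WT library, and every WT library exceeded every CRISPR Control library. Its log2 fold changes were 0.38 ± 0.08 at an adjusted p of 0.00111 in KO 1, 0.42 ± 0.08 at an adjusted p of 0.000222 in KO 2 and -0.64 ± 0.08 at an adjusted p of 2.57e-06 in CRISPR Control, all against WT (limma). The rise of CD151 was thus small against WT and reached 1.02 ± 0.08 at an adjusted p of 2.37e-09 and 1.06 ± 0.08 at an adjusted p of 1.19e-09 against CRISPR Control, for KO 1 and KO 2. Its exons share 257 bases with POLR2L on the opposite strand, whose pooled log2 fold change was 0.02 (adjusted p 0.818).

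CD81 and CD37 behaved differently. CD81 (ENSG00000110651.13, chromosome 11 from 2376177 to 2397802, plus strand), a receptor for hepatitis C virus, had normalised counts of 12641, 10328 and 10713 for WT, 11971, 13679 and 16409 for CRISPR Control, 13019, 12700.0 and 13508 for KO 1 and 10764, 12181 and 12264 for KO 2. CRISPR Control overlapped each of the other lines, WT overlapped KO 2, and the pooled log2 fold change was -0.01 ± 0.07 at an adjusted p of 0.9, which did not pass the test. It differed from WT in CRISPR Control by 0.31 ± 0.10 at an adjusted p of 0.0125, and no longer passed without CRISPR Control replicate 3 (0.19, adjusted p 0.0857), WT replicate 2 (0.26, adjusted p 0.0645) or WT replicate 3 (0.28, adjusted p 0.0537). KO 2 against CRISPR Control gave -0.25 ± 0.10 at an adjusted p of 0.0349 (limma), which was lost without CRISPR Control replicate 3 (-0.13, adjusted p 0.233) or KO 2 replicate 1 (-0.19, adjusted p 0.146) and under both other scalings. CD37 (ENSG00000104894.12, chromosome 19 from 49335171 to 49343335, plus strand), a tetraspanin of B cells, was barely present, with normalised counts of 29.4, 32.7 and 20 for WT, 55.3, 20.2 and 41.8 for CRISPR Control, 17.3, 16.9 and 11.5 for KO 1 and 11.6, 14 and 4.04 for KO 2. Every deficient library lay below every competent library. The pooled log2 fold change was -1.36 ± 0.30 at an adjusted p of 0.000532, and KO 1 against CRISPR Control gave -1.21 ± 0.42 at an adjusted p of 0.0171, which was lost without CRISPR Control replicate 1 (-0.91, adjusted p 0.0917), CRISPR Control replicate 3 (-1.11, adjusted p 0.0545) or KO 1 replicate 3 (-1.04, adjusted p 0.0685). These are 4 to 64 reads per library. Of 7 leukocyte markers 3 had a mean of at least 10, CD14, LAPTM5 and CORO1A, and the list summed to 290 to 552 outside CRISPR Control and to 777 to 936 within it. Of those that define leukocytes, PTPRC had at most 7.46 in any library and MS4A1 and CD3E were at or near 0. CD37 also shares 319 exon bases with TEAD2 on the other strand, and TEAD2 moved the same way, with a pooled log2 fold change of -0.78 (adjusted p 8.4e-10). The part of TEAD2 reads in the CD37 value was not tested.

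The TspanC8 members, partners of ADAM10, moved in opposite directions. In the pooled comparison TSPAN5, TSPAN10 and TSPAN15 were higher and TSPAN14, TSPAN33 and TSPAN17 lower, 6 of 6 where 65.9% of tested genes differed, and their median log2 fold change was -0.04. With WT alone as the competent line TSPAN15 was lower instead, and TSPAN17 did not pass the test. TSPAN5 (ENSG00000168785.8, chromosome 4 from 98470367 to 98658611, minus strand) had normalised counts of 2987, 3105 and 3095 for WT, 2052, 1976 and 2129 for CRISPR Control, 3391, 3441 and 3361 for KO 1 and 6204, 5679 and 6020.3 for KO 2. Its 4 lines did not overlap, with CRISPR Control lowest and KO 2 highest. Against WT it was 0.96 ± 0.06 at an adjusted p of 3.93e-10 in KO 2 and -0.58 ± 0.06 at an adjusted p of 4.54e-07 in CRISPR Control, and 0.15 ± 0.06 at an adjusted p of 0.0763 in KO 1 (limma), where the KO 1 value did not pass the test. KO 2 exceeded KO 1 by 0.81 ± 0.06 at an adjusted p of 1.12e-08.

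TSPAN10 and TSPAN15 were higher by less in the pooled comparison, and TSPAN15 was lower in both KO lines than in WT. TSPAN10 (ENSG00000182612.11, chromosome 17 from 81637171 to 81648754, plus strand), known from pigment cells, had normalised counts of 141, 164 and 114 for WT, 106, 153 and 152 for CRISPR Control, 246, 232 and 239 for KO 1 and 194, 212 and 222 for KO 2. The competent lines overlapped, KO 1 lay above KO 2 without overlap, and no competent library reached a deficient one. It was 0.79 ± 0.16 at an adjusted p of 0.00069 in KO 1, 0.59 ± 0.16 at an adjusted p of 0.00376 in KO 2 and -0.03 ± 0.16 at an adjusted p of 0.875 in CRISPR Control against WT (limma), and the last did not pass. With quantile normalization KO 2 against WT gave 0.33, adjusted p 0.0797, and no longer passed. TSPAN15 (ENSG00000099282.10, chromosome 10 from 69451465 to 69507666, plus strand), the member best known for directing ADAM10 to N-cadherin, had normalised counts of 6984, 6077 and 6261 for WT, 2813, 3162 and 3433 for CRISPR Control, 4401, 4805 and 4867 for KO 1 and 5043, 5669 and 5657 for KO 2. Here WT was highest, CRISPR Control lowest and both KO lines lay between. The differences from WT were -1.04 ± 0.08 at an adjusted p of 4.86e-09 in CRISPR Control, -0.46 ± 0.08 at an adjusted p of 0.000266 in KO 1 and -0.24 ± 0.08 at an adjusted p of 0.0203 in KO 2. Its pooled rise of 0.17 ± 0.06 at an adjusted p of 0.0143 therefore came with a fall in both KO lines against WT, and the KO 2 value became -0.10, adjusted p 0.281, under quantile normalization and -0.14, adjusted p 0.12, with equal library totals. It no longer passed there, nor without WT replicate 1 (-0.18, adjusted p 0.108) or KO 2 replicate 1 (-0.18, adjusted p 0.0993).

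TSPAN14, TSPAN33 and TSPAN17 formed the other side of the pooled comparison. TSPAN14 (ENSG00000108219.17, chromosome 10 from 80454265 to 80533124, plus strand) had normalised counts of 1595, 1453 and 1548 for WT, 2241, 1891 and 2344 for CRISPR Control, 1252, 1217 and 1192 for KO 1 and 854, 930.3 and 913 for KO 2. It was highest in CRISPR Control and lowest in KO 2, with no overlap between lines. Against WT it was -0.33 ± 0.08 at an adjusted p of 0.00493 in KO 1, -0.77 ± 0.08 at an adjusted p of 3.27e-07 in KO 2 and 0.49 ± 0.08 at an adjusted p of 7.74e-05 in CRISPR Control (limma). TSPAN33 (ENSG00000158457.6, chromosome 7 from 129144707 to 129169699, plus strand), a tetraspanin of activated B cells and erythroid cells, had normalised counts of 256, 218 and 233 for WT, 366, 394 and 399 for CRISPR Control, 178, 185 and 205 for KO 1 and 116, 189 and 188 for KO 2. CRISPR Control lay above WT, and all deficient libraries below WT. The log2 difference from WT was 0.71 ± 0.16 at an adjusted p of 0.00083 in CRISPR Control, -0.55 ± 0.16 at an adjusted p of 0.00572 in KO 2 and -0.32 ± 0.16 at an adjusted p of 0.126 in KO 1, where the last did not pass the test. TSPAN17 had means of 1978 ± 129 for WT, 3196 ± 217 for CRISPR Control, 2076 ± 41.1 for KO 1 and 2137 ± 95.8 for KO 2, so CRISPR Control was highest and the other lines overlapped. Its pooled fall rested on CRISPR Control. Both KO lines against WT alone gave 0.09 ± 0.06 at an adjusted p of 0.246 (limma), which did not pass the test.

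**Figure D2:**
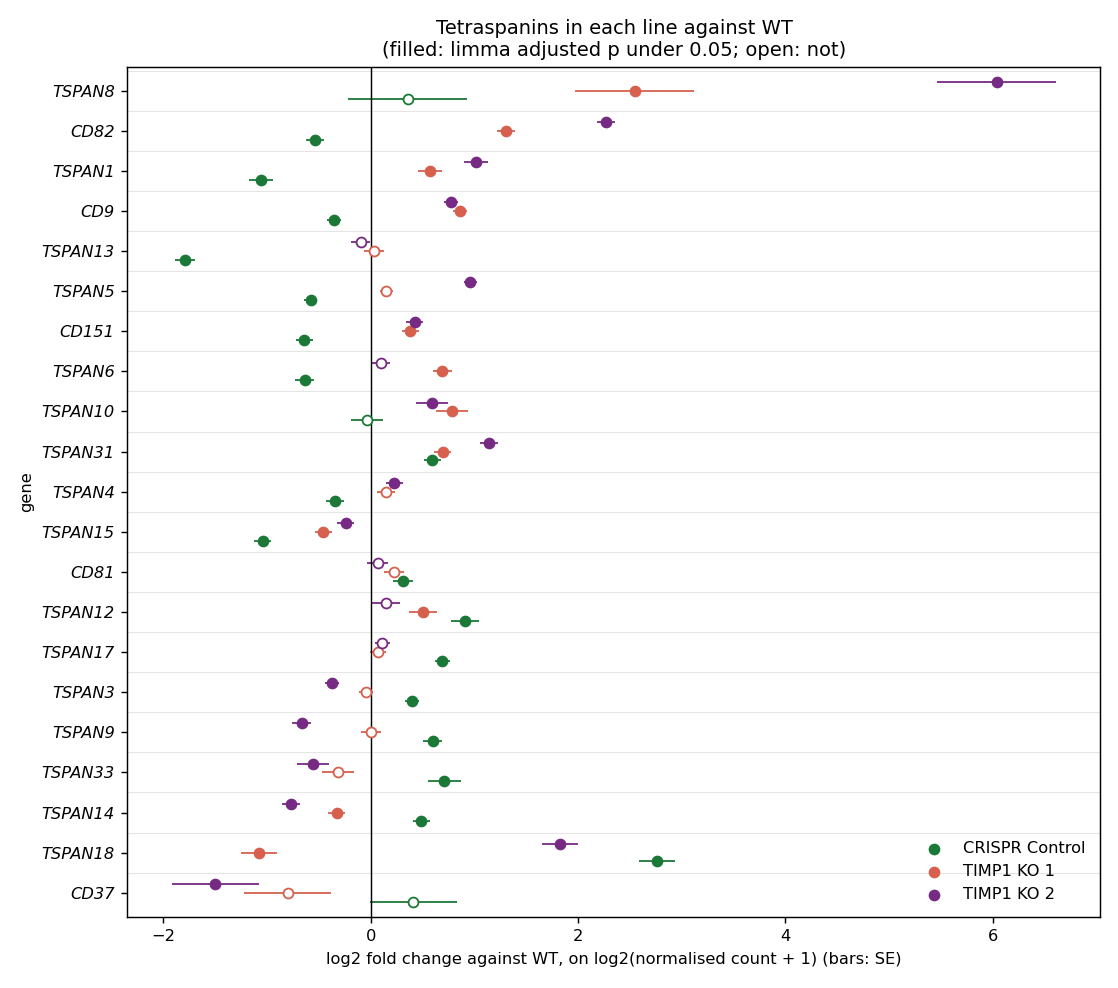
Log2 fold change of 21 tetraspanins against WT in CRISPR Control, KO 1 and KO 2 (horizontal axis, on log2(normalised count + 1), bars: SE), with filled points past adjusted p 0.05 by limma. CD82, CD9, CD151 and TSPAN1 lie to the right of 0 in both KO lines and to the left in CRISPR Control, and TSPAN14 shows the mirror image. The points of TSPAN8 carry no weight of their own, as it was tested only because of its level in KO 2.

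CD151, CD9, CD82, TSPAN1 and TSPAN14, 5 members, lay on opposite sides of WT in CRISPR Control and in both KO lines, past the test in all 3 comparisons (9.56% of tested genes did so). CRISPR Control thus stood further from the KO lines than WT did for these genes. KRT8, KRT18 and KRT19 were lowest in the same line, CRISPR Control, while KRT7, EPCAM and CDH1 of the same marker list were not. KRT19 was at 4583 ± 766 in CRISPR Control and 15707 ± 984 in WT. It rose to 24591 ± 1628 in KO 1 and 52497 ± 6264 in KO 2. CD82, TSPAN1 and TSPAN5 had the same order of lines, also without overlap. KRT8 and KRT18 did not, as both were lower in KO 2 than in WT (35097 ± 1217 and 54161 ± 3553 for KRT18). The part of these keratins in the differences was not tested. TSPAN10 and TSPAN8, 2 members, were higher than WT in each KO line while CRISPR Control against WT did not pass the test (10.2% of tested genes behaved so in either direction).

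TSPAN8 RNA was all but missing from the competent lines and present at a low level in KO 2. TSPAN8 (ENSG00000127324.9, chromosome 12 from 71125085 to 71441898, minus strand), a tetraspanin of gastrointestinal epithelium and of carcinomas derived from it, had normalised counts of 0 in all 3 libraries of WT, 0, 0 and 1.10 for CRISPR Control, 2.16, 9 and 5.30 for KO 1 and 66.3, 57.9 and 70.6 for KO 2. No WT library held a read and the CRISPR Control libraries held 1 read between them, whereas the KO 1 libraries held 2, 8 and 6 reads and the KO 2 libraries 80, 66 and 70. Every KO 2 library exceeded every KO 1 library, and every KO 1 library exceeded every competent library. Taking 3 reads per WT library as the limit that a count of 0 allows, the mean of KO 2 was at least 21.7-fold higher than WT. For the mean of KO 1 the same ratio was 1.83. This is not a lower bound, as KO 1 replicate 1, at 2.16, lay under that limit of 2.99. Against the single read of CRISPR Control the ratio was 188 in KO 2 (exact 95% interval 33.4 to 7472) and 15.8 in KO 1 (2.46 to 663), intervals that cover counting error only. TSPAN8 reached the minimum mean of 10 only through KO 2, so it had to differ to be tested, its calls in the counts above carry no weight of their own, and no fitted difference is given. Within 1 Mb of TSPAN8 lay 10 tested genes, and their median log2 fold change of KO 2 against KO 1 was 0.14. Of the TSPAN8 start windows in RefSeq, the one shown above holds 1 CG and the other, which overlaps it, holds 3.

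TSPAN1, TSPAN6 and TSPAN31 were also higher in the pooled deficient lines. TSPAN1 (ENSG00000117472.10, chromosome 1 from 46175073 to 46185962, plus strand), a tetraspanin of secretory epithelia, had normalised counts of 409.7, 332 and 365 for WT, 150.3, 206 and 177 for CRISPR Control, 565, 531 and 543 for KO 1 and 733, 780.3 and 718 for KO 2. The 4 lines did not overlap, and the order was that of CD82. Against WT it was 0.57 ± 0.12 at an adjusted p of 0.000761 in KO 1, 1.01 ± 0.12 at an adjusted p of 5.73e-07 in KO 2 and -1.05 ± 0.12 at an adjusted p of 3.93e-07 in CRISPR Control (limma). TSPAN6 (ENSG00000000003.16, chromosome X from 100627108 to 100639991, minus strand), which is reported to dampen antiviral signalling and to act in vesicle formation, had normalised counts of 1379, 1539 and 1229.7 for WT, 795, 982 and 889 for CRISPR Control, 2336, 2269.5 and 2077 for KO 1 and 1499, 1418 and 1504 for KO 2. KO 1 stood above all other lines, KO 2 overlapped WT and CRISPR Control lay below. Its log2 difference from WT was 0.69 ± 0.09 at an adjusted p of 1.02e-05 in KO 1, 0.10 ± 0.09 at an adjusted p of 0.39 in KO 2 and -0.64 ± 0.09 at an adjusted p of 1.36e-05 in CRISPR Control, of which the KO 2 value did not pass. KO 2 was lower than KO 1, with a log2 difference of -0.59 ± 0.09 at an adjusted p of 5.17e-05.

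TSPAN31 (ENSG00000135452.10, chromosome 12 from 57738013 to 57750219, plus strand), which lies next to CDK4 in a stretch amplified in some sarcomas, had normalised counts of 347, 340.0 and 353 for WT, 536, 510.0 and 527 for CRISPR Control, 588, 546 and 553 for KO 1 and 793, 735 and 773 for KO 2. It was lowest in WT and highest in KO 2, while CRISPR Control and KO 1 lay close together between them without overlapping. All 3 lines exceeded WT, by 0.69 ± 0.08 at an adjusted p of 2.98e-06 in KO 1, 1.14 ± 0.08 at an adjusted p of 1.64e-09 in KO 2 and 0.59 ± 0.08 at an adjusted p of 9.61e-06 in CRISPR Control. TSPAN31 shares 1369 exon bases with CDK4, a cell cycle kinase on the opposite strand. CDK4 fell in the KO lines, with log2 fold changes against WT of -0.49 (adjusted p 0.000282) in KO 1 and -0.52 (adjusted p 7.23e-05) in KO 2, and gave 0.17 (adjusted p 0.12) in CRISPR Control, which did not pass (limma). AGAP2, another gene on the opposite strand, shares 189 exon bases with TSPAN31 and was higher than WT by 1.08 (adjusted p 2.22e-05) in KO 2 and 0.60 (adjusted p 0.00549) in CRISPR Control, with -0.04 (adjusted p 0.871) in KO 1. The strand setting of the counting is not stated, so reads of the shared bases cannot be assigned.

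TSPAN13 separated CRISPR Control from the rest. TSPAN13 (ENSG00000106537.8, chromosome 7 from 16753755 to 16784536, plus strand), a widely expressed tetraspanin, had normalised counts of 8395, 10236 and 9008 for WT, 2452, 3112 and 2452 for CRISPR Control, 9898, 9465 and 8832 for KO 1 and 8804, 8074 and 8926 for KO 2. WT, KO 1 and KO 2 overlapped at 8074 to 10236, and CRISPR Control was at 2452 to 3112. The log2 difference from WT was -1.79 ± 0.09 at an adjusted p of 1.08e-11 in CRISPR Control, 0.03 ± 0.09 at an adjusted p of 0.825 in KO 1 and -0.10 ± 0.09 at an adjusted p of 0.4 in KO 2, where neither KO line passed the test. Its pooled value of 0.86 ± 0.07 at an adjusted p of 1.2e-09 rested on CRISPR Control, and both KO lines against WT alone gave -0.03 ± 0.08 at an adjusted p of 0.767. KRT8 was also lower in the same libraries, at 39963 ± 5048 in CRISPR Control, 129995 ± 7797 in WT and 135667 ± 1627 in KO 1. In KO 2, where TSPAN13 did not differ from WT, KRT8 was at 96385 ± 4878, below WT. KRT7, EPCAM and CDH1 were not lower in CRISPR Control than in WT. The 5 tested genes within 1 Mb of TSPAN13 had a median log2 fold change of -1.15 in CRISPR Control against WT, so most of its neighbours were lower too. Whether TSPAN13 moved with its region or with the keratins was not tested.

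TSPAN9 and TSPAN18 were lower in the pooled deficient lines, in different ways. TSPAN9 (ENSG00000011105.14, chromosome 12 from 3077355 to 3286564, plus strand), known from platelets, had normalised counts of 499, 478 and 475 for WT, 725, 715 and 759 for CRISPR Control, 473, 453 and 534 for KO 1 and 309, 283 and 324 for KO 2. CRISPR Control was highest, KO 2 lowest, and WT and KO 1 overlapped. Against WT the log2 fold change was 0.60 ± 0.09 at an adjusted p of 3.27e-05 in CRISPR Control, -0.67 ± 0.09 at an adjusted p of 8.21e-06 in KO 2 and 0.01 ± 0.09 at an adjusted p of 0.973 in KO 1, the last not past the test. TSPAN18 (ENSG00000157570.12, chromosome 11 from 44726465 to 44932423, plus strand), a regulator of calcium entry in endothelial cells, had normalised counts of 73.6, 79.1 and 94.3 for WT, 643, 453 and 605 for CRISPR Control, 34.6, 49.5 and 32.7 for KO 1 and 278, 299.9 and 301 for KO 2. No lines overlapped, and the order from low to high was KO 1, WT, KO 2 and CRISPR Control. It fell in KO 1, with a log2 difference from WT of -1.08 ± 0.17 at an adjusted p of 6.82e-05, and rose by 1.82 ± 0.17 at an adjusted p of 4.33e-08 in KO 2 and by 2.76 ± 0.17 at an adjusted p of 1.32e-10 in CRISPR Control (limma). KO 2 exceeded KO 1 by 2.90 ± 0.17 at an adjusted p of 1.84e-10. The pooled fall of TSPAN18 rested on CRISPR Control. Both KO lines against WT alone gave a rise of 0.37 ± 0.15 at an adjusted p of 0.0436, a mean of the fall in KO 1 and the rise in KO 2. CD82 lies upstream on the same chromosome arm and strand, from 44564427 to 44620358, yet its order of lines was another. The endothelial markers PECAM1, VWF and CDH5 each had a mean under 10 over the 12 libraries and did not move alike. PECAM1 was at 11.3 ± 4.70 in CRISPR Control and 13.1 ± 3.56 in KO 2, where TSPAN18 was high, at 2.06 ± 1.24 in WT and at 0 in KO 1. VWF was lowest in CRISPR Control, at 5.84 ± 2.68. It was at 9.77 ± 1.61 in WT, 10.0 ± 6.86 in KO 1 and 11.2 ± 2.71 in KO 2. CDH5 was at 7.72 ± 3.85 in CRISPR Control and 1.59 ± 2.75 in WT. In KO 1 and KO 2 CDH5 was at 0.75 ± 1.30 and 0.92 ± 0.88. The 3 markers summed to 2.65 to 16.2 in KO 1, 11.3 to 16.2 in WT, 19.0 to 29.4 in CRISPR Control and 21.0 to 32.3 in KO 2, and their part in the TSPAN18 values was not tested.

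TSPAN3, TSPAN4 and TSPAN12 did not reach an absolute log2 fold change of 1 in any pair of lines and are given by line means. TSPAN3 had means of 3961 ± 188 for WT, 5213 ± 259.7 for CRISPR Control, 3839.8 ± 102 for KO 1 and 3068 ± 176 for KO 2. TSPAN4 had 5802 ± 354, 4592 ± 504, 6418 ± 289 and 6811 ± 587 for the same order of lines. TSPAN12, which strengthens Norrin signalling through FZD4, had 131 ± 6.04, 247 ± 26.1, 186 ± 21.2 and 145 ± 15.4. TSPAN12 was highest in CRISPR Control, above WT by 0.91 ± 0.14 at an adjusted p of 1.65e-05, and above WT in KO 1 by 0.50 ± 0.14 at an adjusted p of 0.00707 (limma). It differed in 5 of the 6 pairs, yet its pooled log2 fold change of -0.13 ± 0.10 at an adjusted p of 0.243 did not pass the test.

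The proteins that tetraspanins hold together were followed in a list of 48 partner genes, of which 46 were tested and PRPH2 and VCAM1 were too low. In the pooled comparison 18 were higher and 19 lower, beside 65.9% of all tested genes that differed, and the list's median log2 fold change was -0.07. With WT alone as the competent line 16 were higher and 15 lower, beside 49.8% of tested genes that differed. ADAM10, the protease that TspanC8 members carry, had a pooled log2 difference of 0.22 ± 0.06 at an adjusted p of 0.00199. With WT alone as the competent line ADAM10 gave 0.16 ± 0.07 at an adjusted p of 0.0612 (limma), which did not pass the test. Of 8 proteases and substrates 1 was higher and 5 were lower in the pooled comparison. Among these, CDH1 (E-cadherin) had normalised counts of 1151, 1163 and 1254 for WT, 1487, 1344 and 1442 for CRISPR Control, 125, 158 and 102 for KO 1 and 103, 83.3 and 68.6 for KO 2, and CDH2 (N-cadherin) had 560.3, 562 and 591 for WT, 1185, 1071 and 1074 for CRISPR Control, 82.1, 100.1 and 98.9 for KO 1 and 402, 358 and 393 for KO 2. Both cadherins were lower in every deficient library than in any competent one. Their pooled log2 fold changes were -3.65 ± 0.10 at an adjusted p of 6.6e-16 and -2.06 ± 0.07 at an adjusted p of 1.42e-14 (limma), and both were also lower in each KO line than in WT. CDH1 and CDH2 also belong to the epithelial and mesenchymal marker lists.

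The integrins that CD151 binds were split. Of 5 integrin genes 2 were higher (ITGA3 and ITGB1) and 2 lower (ITGB4 and ITGA7) in the pooled comparison, where 32.9% of tested genes were higher and 33% lower. ITGB4, the beta chain of the hemidesmosome integrin, had normalised counts of 1303, 1195 and 1345 for WT, 2494, 2069.7 and 2809.9 for CRISPR Control, 708, 689.7 and 792 for KO 1 and 425, 441 and 456 for KO 2. ITGA7, a laminin-binding alpha chain, had 80.4, 80.9 and 79.1 for WT, 687, 591 and 685 for CRISPR Control, 64.8, 50.6 and 55.7 for KO 1 and 87.8, 124 and 110.0 for KO 2. CRISPR Control was highest for both, and KO 2 lowest for ITGB4, but only CRISPR Control stood far from the rest for ITGA7. Pooled log2 fold changes were -1.64 ± 0.07 at an adjusted p of 2.73e-13 for ITGB4 and -1.55 ± 0.11 at an adjusted p of 3e-10 for ITGA7, while ITGA7 in KO 2 exceeded WT by 0.40 ± 0.15 at an adjusted p of 0.0321.

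Other partners moved with a particular line. PTGFRN, the immunoglobulin-like protein that binds CD9 and CD81, had normalised counts of 64.5, 65.5 and 54.3 for WT, 94.1, 79.5 and 61.5 for CRISPR Control, 8.64, 14.6 and 15.9 for KO 1 and 14.1, 21.9 and 15.1 for KO 2, so both KO lines lay below both competent lines, with a pooled log2 difference of -2.16 ± 0.19 at an adjusted p of 1.14e-08. IFITM1, an interferon-induced protein found with CD81, had 75.8, 53.6 and 66.7 for WT, 23.3, 36.8 and 38.5 for CRISPR Control, 46.5, 72 and 38 for KO 1 and 377, 420.0 and 273 for KO 2, high in KO 2 alone, which exceeded WT by 2.42 ± 0.25 at an adjusted p of 1.33e-07. NDP, the Norrin ligand of the receptor that TSPAN12 joins, had 4.53, 3.64 and 2.86 for WT, 2.59, 3.56 and 1.10 for CRISPR Control, 15.1, 4.50 and 7.07 for KO 1 and 139, 174 and 147 for KO 2. NDP was thus near the floor outside KO 2, as TSPAN8 was. NDP, too, was tested only because of its level in KO 2, so its difference is described without a test. Its call in the partner counts above carries no weight of its own. RAB27B, a small GTPase of vesicle release, had 533, 663 and 551 for WT, 94.1, 68.8 and 68.1 for CRISPR Control, 5.40, 4.50 and 4.42 for KO 1 and 135, 103 and 84.8 for KO 2. RAB27B was lower than WT in all 3 edited lines, CRISPR Control included, with -2.91 ± 0.20 at an adjusted p of 6.47e-10 there, -6.66 ± 0.20 at an adjusted p of 9.85e-15 in KO 1 and -2.44 ± 0.20 at an adjusted p of 7.39e-09 in KO 2 (limma).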

How the data were processed

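RNA was sequenced from 12 libraries, 3 of each of 4 lines. The authors trimmed reads with Cutadapt, aligned them with STAR (GRCh38), obtained gene counts from featureCounts and scaled these by the size factors of DESeq2. The deposited values are this normalised signal per gene. The annotation release and strand setting are not given in the sources used here. Whole reads were recovered from the deposited signal within 0.01 and used for the count alternatives, for depth and for floors. The 4 columns of line means and 1 row without a gene were not used. Genes with a mean of at least 10 (15987) were tested on log2(value + 1) with limma 3.58.1 in R 4.3.3, with all 12 libraries, two-sided, with Benjamini-Hochberg adjustment over all tested genes and a threshold of 0.05. The fit was tested on simulated data. The values of 1 leukocyte marker are not reported here.

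Values of each library are given for tested members with an absolute log2 fold change of at least 1 past the threshold in any pair of lines, in the intersection of both KO lines, or among the 5 with the most counts per kilobase, and for the 8 partners with the largest pooled difference. The members and gene lists were chosen with earlier results of these data known. Exon lengths, positions and promoters came from GRCh38 annotation and RefSeq. Alternatives were pseudocounts of 10 and 0.5, no minimum and a minimum of 50, quantile normalization, equal library totals, a minimum fold, edgeR 4.0.16, DESeq2 1.42.0, the compared libraries only, a replicate block and leaving out each library.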

Additional observations from a re-analysis of the deposited data

Results flagged for a closer look

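TSPAN18 was flagged because the KO lines moved to opposite sides of WT: KO 2 exceeded KO 1 by 2.90 on the log2 scale (limma, tested as a contrast of its own), with KO 1 below and KO 2 above every WT library.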

How the results depend on the processing

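Of the values of named genes under the alternatives, 2551 kept direction and side of the threshold, 24 lost the call, 11 gained it and 18 changed sign, all 18 of results that had not passed the test. This tally left out WT alone as the competent line. There the pooled values of TSPAN15 and TSPAN18, both past the test, changed sign to -0.35 (adjusted p 0.000513, limma) and 0.37 (adjusted p 0.0436). With an absolute log2 fold change of at least 1 required, the tetraspanins called numbered 3 in KO 1 and 6 in KO 2 against WT, 4 in CRISPR Control against WT, 10 in KO 1 and 11 in KO 2 against CRISPR Control, 2 between the KO lines and 5 in the pooled comparison, and the partners called numbered 11, fewer by construction. Members for which each KO line but not CRISPR Control differed from WT numbered 1 with a minimum mean of 50, where TSPAN8 was not tested, 1 with quantile normalization and 3 with the compared libraries only, where CD37 joined.

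Signs changed for TSPAN9 in KO 1 against WT (-0.061 with quantile normalization, -0.0025 with equal library totals, -0.063 to 0.055 without single libraries), for TSPAN13 in KO 1 against WT (-0.033 to 0.11 without single libraries) and for TSPAN13 in KO 2 against WT (0.037 with quantile normalization). They also changed without single libraries for TSPAN10 in CRISPR Control against WT (-0.17 to 0.14) and CD81 in KO 1 against CRISPR Control (-0.20 to 0.031). For CD9 between the KO lines the value was 0.071 with quantile normalization and 0.014 with equal library totals, and for pooled CD81 it was 0.076, 0.043 and, without single libraries, -0.065 to 0.049. The cause was not tested.

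With the compared libraries only, 17 tetraspanins differed between KO 1 and WT (12 higher, 5 lower) in place of 12. Without single libraries the counts ran from 12 to 13 in KO 1 against WT, 15 to 16 in KO 2 against WT, 17 to 18 in CRISPR Control against WT, 17 to 19 in KO 1 and 20 to 21 in KO 2 against CRISPR Control and 10 to 12 between the KO lines, and the pooled count was 19 throughout. With equal library totals, the share of called genes that were higher went from 47.4% to 65.5% in KO 2 against KO 1 and from 49.3% to 59.9% in KO 2 against WT. Same-numbered libraries did not deviate together (median correlation -0.0103 over 18 pairs, with 4 of 12 libraries closest to their own number). With a replicate block 11 members differed between the KO lines in place of 12, and the other counts, 12, 16, 18, 19, 21 and, pooled, 19, were as without it. Depth limits TSPAN8 and CD37 most, with at most 80 and 64 reads in a library.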
